A study of Zea mays with 8 samples.

Results

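The genes described here were expressed in immature ears of the maize inbred B73 and had no counted read in ears of the inbred Mo17. They were chosen by rule from whole-number read counts per gene ID. A chosen ID had 0 counts in both Mo17 libraries and at least 2 counts per 1000000 gene-assigned reads (CPM) in both B73 libraries. IDs numbered 460 or lower and a further short stretch of numbers were left out. The rule was met by 302 of 39498 gene IDs. They made up 1.54% of the 19592 IDs in the same number range that reached 2 CPM in both B73 libraries, and the other 19290 of those had counts in Mo17. The mirror rule, expression in Mo17 and 0 counts in B73, was met by 308 IDs.

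RNA from immature ears was sequenced in 8 libraries, 2 in each of 4 groups. The mop1F1 group is a hybrid labelled B73/Mo17 and homozygous for mop1 (mop1/mop1). The WTF1 group is a hybrid labelled Mo17/B73 that carries the wild-type allele (+/+). The remaining groups are the wild-type inbred parents B73 and Mo17. The labels write the parents of the hybrids in opposite orders and give no further account of the crosses, of plant age or of pooling. Whether replicates are different plants is not stated, and the p-values then reflect only how far these libraries vary, part of which may be technical.

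B73 and Mo17 are widely used inbred lines of maize, and their genomes are known to differ by presence-absence variation, in which a gene or a whole segment is found in one line and missing from the other. A hybrid of the pair has a single copy of such a gene, inherited from the parent that carries it, so 0.5 times the level in that parent is a natural point of comparison, called the single-dose level here. A gene that both lines carry can also be silent in one of them. The product of mop1 is an RNA-dependent RNA polymerase with a role in RNA-directed DNA methylation. The files do not pair gene IDs with names, and 0 of the IDs were found in the gene table used here, so no function, chromosome or sequence is given for any ID and the tissue label was not checked against marker genes.

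Gene-assigned counts ranged from 11723096 to 26199577 per library. Ambiguous reads, which overlap more than 1 gene, made up 10.25% of records in mop1F1 replicate 1 and 9.7% in WTF1 replicate 1, compared with 1.29% to 2.35% in the other 6 libraries. A count of 0 allows up to 3 counts, or 0.115 to 0.256 CPM depending on the library. These limits reflect counting error alone, as reads and not tagged molecules were counted. Per the file names, reads of Mo17 were mapped to Mo17 and reads of all other groups to B73. A 0 in Mo17 can therefore stand for a missing gene, a silent gene or an ID that was not part of the Mo17 annotation, and these cannot be told apart here. In the number range of the rule, 12021 IDs had 0 counts in both B73 libraries and 11933 had 0 counts in both Mo17 libraries, and 9725 IDs were in both sets.

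In the parents, the chosen genes spanned the range from weak to strong expression. The mean B73 level ran from 2.15 to 456 CPM with a median of 12.5 CPM and quartiles of 5.53 and 30.4 CPM. The median was 26.2 CPM for the B73-expressed IDs that had counts in Mo17. A mean of at least 10 CPM was reached by 171 of the 302 IDs and of at least 50 CPM by 37. The B73 libraries differed less than 2-fold at 291 IDs and 2-fold or more at 11. Set against 3 counts per Mo17 library, the B73 mean was at least 12.1-fold to at least 2576-fold higher, with a median lower bound of 70.8-fold. These parental values chose the IDs and are given as a description.

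At the edge of the rule, Zm00001d012251.RefGen_V4 (2.42 and 2.04 CPM in B73) and Zm00001d049265.RefGen_V4 (3.54 and 2.04 CPM) were just inside. With 1.99 and 2.74 CPM, Zm00001d008437.RefGen_V4 fell just outside, as did Zm00001d033139.RefGen_V4 with 1.99 and 2.22 CPM. Among B73-expressed IDs, 33 had a total of 1 count in the Mo17 libraries, 30 had 2 and 27 had 3. By the smaller of their B73 levels, the 2 most abundant of those with 1 count were Zm00001d011075.RefGen_V4, at 177 and 122 CPM in B73, and Zm00001d028140.RefGen_V4, at 164 and 113 CPM.

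Both hybrids expressed most of the genes that were at 0 in Mo17, at levels centred near the single-dose level. Reads were counted in all 4 hybrid libraries for 288 of the 302 IDs. Divided by the single-dose level (0.5 times the mean of the B73 libraries), the mean of the mop1F1 libraries had a median of 0.953 over the 302 IDs (quartiles 0.672 and 1.25). For WTF1 the median was 0.988 (quartiles 0.695 and 1.28). The 19290 IDs with counts in Mo17 had medians of 1.96 in mop1F1 and 1.99 in WTF1 on the same scale, where 2 is the full B73 level. The same B73 libraries chose the IDs and form the denominator, so these ratios are a description. In bulk tissue, fewer cells of a type and less RNA per cell cannot be told apart.

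The median moved more between libraries of a hybrid than between the hybrids. Over the 302 IDs it was 0.782 in mop1F1 replicate 1 and 1.07 in mop1F1 replicate 2, and 1.14 in WTF1 replicate 1 and 0.727 in WTF1 replicate 2. The libraries of the hybrids therefore overlapped. In the same order, the 19290 IDs with counts in Mo17 had medians of 1.78, 1.99, 1.89 and 2.02. Counts of the 302 IDs made up 0.351% and 0.406% of gene-assigned reads in mop1F1, 0.464% and 0.293% in WTF1, and 0.823% and 0.716% in B73.

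**Figure D1:**
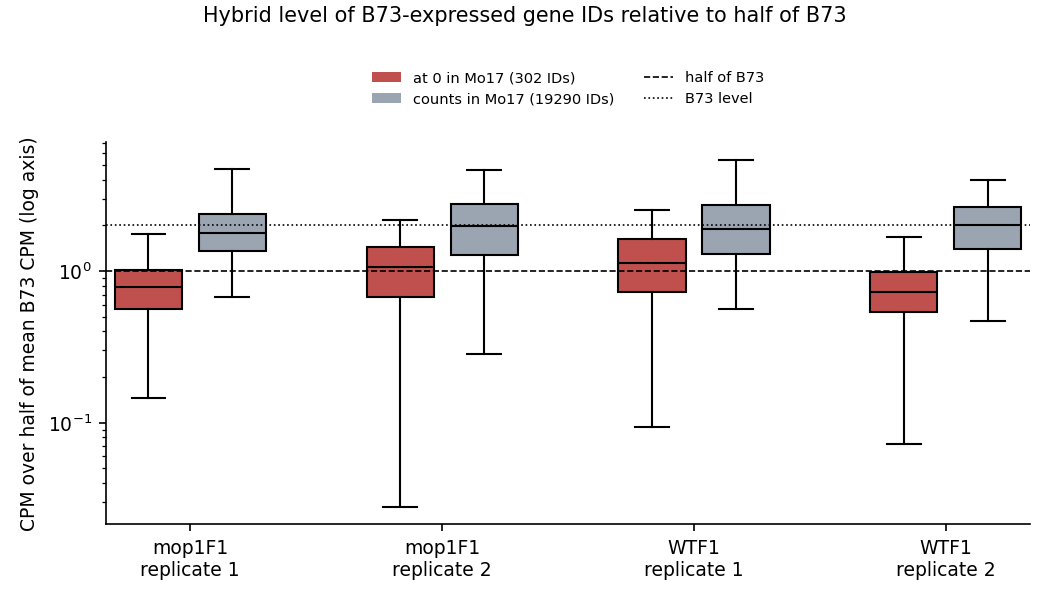
Level in each hybrid library divided by 0.5 times the mean B73 level (log axis), for the 302 IDs at 0 in Mo17 (left box of each pair) and the 19290 B73-expressed IDs with counts in Mo17 (right box). Boxes span the quartiles with the median as a line, whiskers reach the outermost values within the 5th to 95th percentiles, and values under 0.02 were set to 0.02; the medians of the left boxes lie between 0.727 and 1.14 and those of the right boxes between 1.78 and 2.02.

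Single genes scattered widely around the single-dose level. A ratio to this level of 0.5 to 2 was found for 75.8% and 71.5% of the 302 IDs in mop1F1 replicates 1 and 2, and 72.8% and 77.2% in WTF1 replicates 1 and 2. All 4 hybrid libraries stayed in this range at 146 IDs (48.3%). At most 0.25 in all 4 libraries was found for 12 IDs (3.97%), and at least 1.5 in all 4 for 3 IDs (0.993%). In all 4 libraries, 0.477% of the 19290 IDs with counts in Mo17 were at most 0.25 and 42.4% at least 1.5. A ratio of 0.5 to 2 in all 4 was found for 19.7% of them. This range reaches the full B73 level. It held 58.4% and 42% of the 19290 IDs in mop1F1 replicates 1 and 2, and 49.8% and 43.8% in WTF1 replicates 1 and 2. The libraries of mop1F1 differed 2-fold or more at 37.7% of the 302 IDs and at 24.4% of the 19290 others, and those of WTF1 at 37.1% and 21.8%. These sets were not matched for level, with a median B73 mean of 12.5 CPM for the 302 IDs and 26.2 CPM for the others. The part of level in this difference was not tested. From the weakest to the strongest of 4 equal parts of the IDs by B73 level, the median was 0.827, 0.75, 0.781 and 0.779 in mop1F1 replicate 1 and 1.06, 1.01, 1.21 and 1.08 in mop1F1 replicate 2. It was 1.07, 1.07, 1.12 and 1.19 in WTF1 replicate 1 and 0.695, 0.673, 0.803 and 0.732 in WTF1 replicate 2. At each B73 level, mop1F1 replicate 2 and WTF1 replicate 1 were thus above 1 and the other 2 libraries below it.

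The 10 genes most abundant in B73 show this range. Zm00001d021300.RefGen_V4, the most abundant of all, had 327 and 132 CPM in mop1F1, 57.2 and 35.7 CPM in WTF1, and 397 and 516 CPM in B73. Both mop1F1 libraries lay above both WTF1 libraries, and all 4 lay below B73. It was among the IDs called lower than the single-dose level in WTF1 in the test described next (edgeR, adjusted p = 0.0167), a call that ended when either B73 library was left out. Zm00001d051591.RefGen_V4 had 247 and 203 CPM in mop1F1, 56.1 and 302 CPM in WTF1, and 362 and 399 CPM in B73, so that WTF1 replicate 1 stood far below the other hybrid libraries. Zm00001d012100.RefGen_V4 was even across hybrids, with 79.1 and 71.8 CPM in mop1F1, 81.6 and 59.4 CPM in WTF1, and 222 and 163 CPM in B73. Its hybrid libraries lay between 0.617 and 0.848 of the single-dose level.

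Among the remaining abundant genes, Zm00001d011253.RefGen_V4, Zm00001d018257.RefGen_V4, Zm00001d043484.RefGen_V4 and Zm00001d013831.RefGen_V4 were highest in WTF1 replicate 1, at 1.54 to 2.13 times the single-dose level, and lay between 0.555 and 0.718 in WTF1 replicate 2. Zm00001d033948.RefGen_V4 and Zm00001d053092.RefGen_V4 ranged from 0.521 to 1.18 over the 4 hybrid libraries. Zm00001d035659.RefGen_V4 had 28.8 and 19.1 CPM in mop1F1, 12.4 and 24.6 CPM in WTF1, and 73.2 and 119 CPM in B73. It was below the single-dose level in all 4 hybrid libraries.

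Each hybrid was tested against the single-dose level with edgeR's quasi-likelihood test, fitted across all 24511 IDs kept with a log2 fold change of -1 from B73 as the null, and adjusted over all of them by the Benjamini-Hochberg method at 0.05. In mop1F1, 17 of the 302 IDs (5.63%) were lower than the single-dose level and 1 was higher. Of all IDs tested, 1.32% were lower and 48.3% higher. In WTF1, 20 of the 302 IDs (6.62%) were lower and 0 were higher (edgeR, 2 higher at an unadjusted p below 0.05, 4 higher by DESeq2). Of all IDs tested, 1.42% were lower and 45.5% higher (edgeR). In either direction, DESeq2 called 26 of the 302 IDs in WTF1 and 12747 of all 26093 IDs it tested. The median log2 fold change against the single-dose level was -0.01 over the 302 IDs in mop1F1 and -0.02 in WTF1, while over all IDs tested it was 1.07 and 1.03. Because 49.6% of all IDs passed in mop1F1 and 46.9% in WTF1, an adjusted p of 0.05 corresponded to an unadjusted p of 0.0248 in mop1F1 and 0.0235 in WTF1. At an unadjusted p below 0.05, 28 of the 302 IDs differed in mop1F1, 6 higher and 22 lower, while of all IDs tested 59% did, 57.1% higher and 1.96% lower. In WTF1, 28 of the 302 IDs differed at that threshold, 2 higher and 26 lower, while of all IDs tested 56.8% did, 54.6% higher and 2.16% lower. At an unadjusted p below 0.01, 11 of the 302 IDs in mop1F1 and 13 in WTF1 differed, and all of these were lower. The share of all IDs tested that passed 0.01 was not computed, so these counts have no background beside them. Both tests used the same B73 libraries, which also took part in the choice of the IDs. All calls and p-values of the 302 IDs against this level, here and in other paragraphs, are therefore a description. All IDs tested were centred near the full B73 level, further from a call as lower than the 302 IDs were. Their share called lower is thus not a matched background for the 302 IDs.

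These calls depended on having both B73 libraries in the fit. Without B73 replicate 1 or without B73 replicate 2 the fit called 0 of the 302 IDs in either hybrid (edgeR, 12 and 15 at an unadjusted p below 0.05 in mop1F1, 16 and 17 in WTF1). The loss was not limited to these IDs: over all IDs tested, calls in mop1F1 numbered 199 and 206 in those fits, compared with 12161 with both B73 libraries, and calls in WTF1 numbered 162 and 164, compared with 11507. Without mop1F1 replicate 1 or 2, the median log2 fold change of mop1F1 against the single-dose level over the 302 IDs was 0.12 and -0.2. In a setting added after the data were seen, both hybrid libraries rich in ambiguous reads were left out. It assumes the lone hybrid library to vary like the other groups, so only its effect size is given. The median log2 fold change against the single-dose level over the 302 IDs was then 0.11 in mop1F1 and -0.42 in WTF1.

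Zm00001d049882.RefGen_V4 had 0 counts in all 4 hybrid libraries and 8.59 and 8.22 CPM in B73. It was the only chosen ID absent from all of them. Against 3 counts per library it was at least 34.6-fold lower than the single-dose level in mop1F1 (edgeR, adjusted p = 0.00679) and at least 22.7-fold lower in WTF1 (edgeR, adjusted p = 0.0079). Without B73 replicate 1 or 2 neither call passed (edgeR, adjusted p = 0.0678 and 0.075 in mop1F1, 0.0721 and 0.0841 in WTF1). Over all alternatives the adjusted p ranged from 1.1e-06 to 0.075 in mop1F1 and from 4.05e-06 to 0.0841 in WTF1.

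Zm00001d049201.RefGen_V4 had 0 counts in both mop1F1 libraries, 0 and 0.0763 CPM in WTF1, and 4.13 and 2.68 CPM in B73. In mop1F1 it was at least 14-fold lower than the single-dose level (edgeR, adjusted p = 0.0104; range over the alternatives 0.000234 to 0.0782, not passed without B73 replicate 1 or 2, at 0.0767 and 0.0782). Zm00001d039546.RefGen_V4 was strong in B73, with 85.5 and 66.7 CPM, and was read in a single hybrid library. It had 21.3 and 0 CPM in mop1F1 and 0 counts in both WTF1 libraries, at least 205-fold lower than the single-dose level in WTF1 (edgeR, adjusted p = 0.0419; range over the alternatives 5.08e-07 to 0.142). Leaving out B73 replicate 1 or 2 ended that call (edgeR, adjusted p of 0.123 and 0.121), as did leaving out WTF1 replicate 1 or 2 (edgeR, adjusted p = 0.114 and 0.142). Of the 5 IDs at 0 in both WTF1 libraries, the remaining 3 were weak in B73 (4.42 to 6.83 CPM on average) and had at most 0.213 CPM in a mop1F1 library.

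The 1 ID called higher was Zm00001d025661.RefGen_V4, with 4.34 and 3.65 CPM in mop1F1, 3.33 and 2.48 CPM in WTF1, and 2.68 and 3.09 CPM in B73. Its level in mop1F1 exceeded the whole B73 level in both libraries, a log2 fold change of 1.55 ± 0.51 (SE) over the single-dose level (edgeR, adjusted p = 0.0446; range over the alternatives 0.0281 to 0.206). Leaving out B73 replicate 1 or 2 ended the call (edgeR, adjusted p of 0.206 and 0.174), and so did leaving out mop1F1 replicate 1 (edgeR, adjusted p = 0.102) or using the replicate number as a block (edgeR, adjusted p = 0.0714). It passed under 5 of 11 alternatives.

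The hybrids were also compared with each other, a contrast that took no part in the choice of the IDs. In mop1F1 against WTF1, 0 of the 302 IDs were called (edgeR quasi-likelihood test, adjusted over 24511 IDs; 7 at an unadjusted p below 0.05, 6 higher and 1 lower in mop1F1; DESeq2 called 2, both higher). Of all IDs tested, 0.00816% were called, 0.00408% higher and 0.00408% lower. An unadjusted p below 0.05 was found for 1.86% of all IDs, 1.18% higher and 0.681% lower. The median log2 fold change was -0.01 over the 302 IDs and 0.05 over all IDs tested. The filter used all 4 groups, so the B73 libraries that chose the IDs also helped them to pass it. A fit of the hybrids alone kept 285 of the 302 IDs. It called 0 of all 24001 IDs tested, and 1 of the 285 had an unadjusted p below 0.05 (edgeR). Both mop1F1 libraries lay above both WTF1 libraries at 19 of the 302 IDs (6.29%) and below both at 21 (6.95%), against 4.43% and 6.54% of the 19592 B73-expressed IDs. DESeq2 called 42 of all 24856 IDs it tested, while the shares of calls given above are from edgeR. The chosen IDs that DESeq2 called were Zm00001d021300.RefGen_V4 and Zm00001d039546.RefGen_V4, whose libraries are given above. For Zm00001d021300.RefGen_V4 edgeR gave a log2 fold change of 2.42 ± 0.54 (SE) and an adjusted p of 1, and DESeq2 an adjusted p of 0.00752. With both ambiguity-rich hybrid libraries removed, 1 library per hybrid remained, and the median log2 fold change over the 302 IDs was 0.39.

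A handful of the genes followed the replicate number of the hybrid library instead of its genotype. These were picked after their values were seen: 6 of the 302 IDs were at least 8 times higher in both hybrid libraries numbered 1 than in both numbered 2, and 0 in the opposite direction. Over the 19592 B73-expressed IDs the shares were 0.112% and 0.0051%. Zm00001d036530.RefGen_V4 had 52.7 and 0.461 CPM in mop1F1 replicates 1 and 2, 69.8 and 0.496 CPM in WTF1 replicates 1 and 2, and 96.8 and 73.6 CPM in B73. Zm00001d036609.RefGen_V4 had 29.9 and 0.154 CPM in mop1F1, 47.6 and 0.0382 CPM in WTF1, and 79.8 and 57.1 CPM in B73. Zm00001d036640.RefGen_V4 had 15.2 and 0.0768 CPM in mop1F1, 22.9 and 0 CPM in WTF1, and 45.9 and 38.6 CPM in B73. In each of the 3, the libraries numbered 1 were at 0.721 to 1.64 times the single-dose level and those numbered 2 at 0.0117 of it or less.

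The other 3 were weaker. Zm00001d036086.RefGen_V4 had 6.71 and 9.79 CPM in B73, Zm00001d027606.RefGen_V4 had 7.36 and 6.35 CPM, and Zm00001d053888.RefGen_V4 had 10.5 and 6.53 CPM. Their hybrid libraries numbered 2 held at most 0.153 CPM. Of the 6, 4 lie close together in number, between Zm00001d036086.RefGen_V4 and Zm00001d036835.RefGen_V4. The last ID of this stretch was itself split at least 4-fold, with 4.51 and 0.23 CPM in mop1F1 and 3.41 and 0.84 CPM in WTF1. The limits of the stretch were themselves set by chosen IDs split at least 4-fold, as the longest series of such IDs with nearby numbers. Of the 7 chosen IDs in this stretch, 5 were split at least 4-fold, a count that follows from this choice. The 2 others were not: Zm00001d036788.RefGen_V4 had 2.85 and 5.72 CPM in mop1F1 and 4.27 and 5.11 CPM in WTF1, and Zm00001d036825.RefGen_V4 had 38.3 and 52.3 CPM in mop1F1 and 71.3 and 28.8 CPM in WTF1. Among the 256 other B73-expressed IDs of the stretch, 6 were split at least 4-fold and 0 at least 8-fold. These others took no part in setting the limits, so their share cannot be weighed against that of the chosen IDs. Ambiguous reads were also high in the libraries numbered 1, and their part in these values was not tested.

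**Figure D2:**
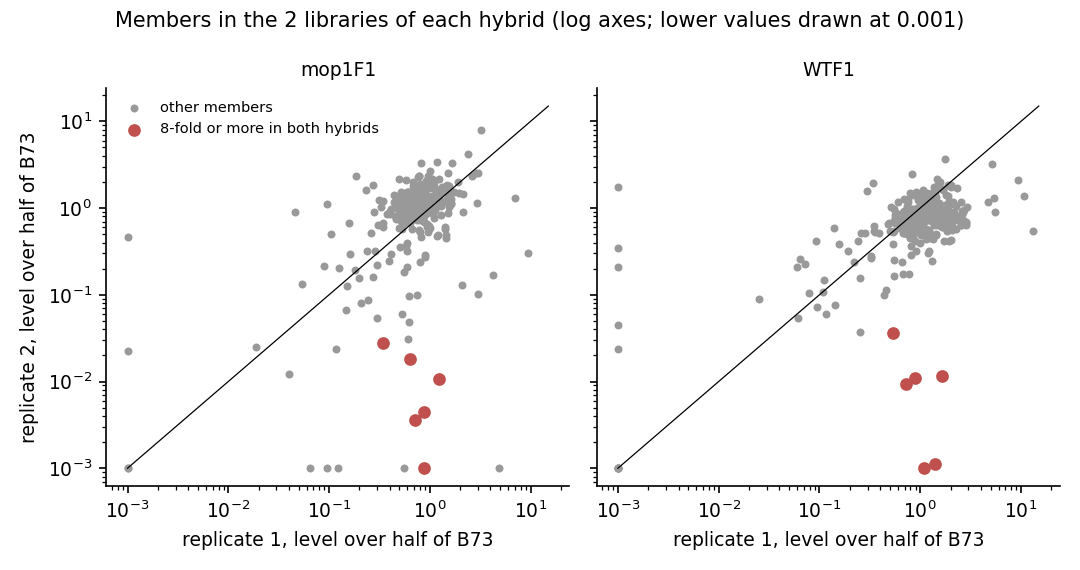
Level over the single-dose level of each of the 302 IDs in replicate 1 (x axis) and replicate 2 (y axis) of mop1F1 (left) and WTF1 (right), on log axes with values under 0.001 drawn at 0.001 and the line of equality. The 6 IDs at least 8 times higher in both libraries numbered 1 are red and lie below the line in both panels, at most at 0.0358 in replicate 2.

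The genes at 0 in Mo17 were found along nearly the whole range of gene ID numbers, from 1849 to 53888. IDs with nearby numbers are usually neighbours in the genome, although positions were not used here. In windows of 2000 ID numbers with at least 500 B73-expressed IDs (26 windows), each window held 3 to 26 of the chosen IDs, with a median of 10.5. As a share of the B73-expressed IDs of a window this was 0.421% to 3.46%, with a median of 1.41%. The lowest share was in the window from 14001 to 16000 and the highest in the window from 34001 to 36000, where 26 of 752 were at 0 in Mo17. The step in number from one chosen ID to the next had a median of 104 and quartiles of 38 and 230. The widest gap, 1044 numbers, ran from 42097 to 43141.

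**Figure D3:**
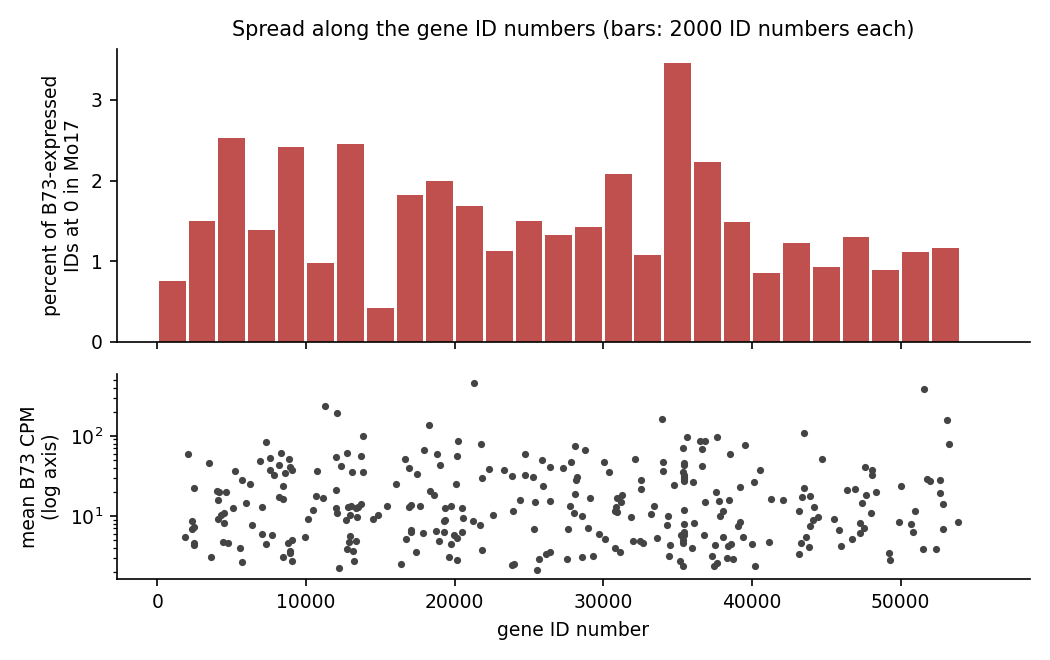
Upper panel, percent of B73-expressed IDs at 0 in Mo17 per window of 2000 gene ID numbers (bars start at 0); lower panel, mean B73 CPM (log axis) of each of the 302 IDs by its number. The tallest bar, 3.46%, covers the numbers from 34001 to 36000.

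Most of the genes stood alone among their expressed neighbours. When the B73-expressed IDs were put in number order, 266 of the 302 (88.1%) had an ID with Mo17 counts on both sides. There were 9 runs of 2 and 2 runs of 3 or more, which held 14 and 4 IDs. The step to the next chosen ID was 1 in 11 of 301 cases and at most 5 in 26.

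The longest run held 14 genes from Zm00001d035356.RefGen_V4 to Zm00001d035436.RefGen_V4. The table of counts lists 53 IDs over this span, and 50 of them had 0 counts in both Mo17 libraries. The 3 exceptions held at most 12 counts in a Mo17 library. B73 counts without Mo17 counts were found at 23 of the 53 IDs, the 14 of the run among them, and 27 had no count in either parent. On the lower side, the nearest B73-expressed ID was Zm00001d035346.RefGen_V4, with 215 and 128 CPM in B73 and 7.6 and 6.07 CPM in Mo17. On the upper side it was Zm00001d035439.RefGen_V4, with 22.2 and 19.6 CPM in B73 and 18.9 and 21.7 CPM in Mo17. A further ID at 0 in Mo17, Zm00001d035444.RefGen_V4, followed a few IDs later, outside the run.

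**Figure D4:**
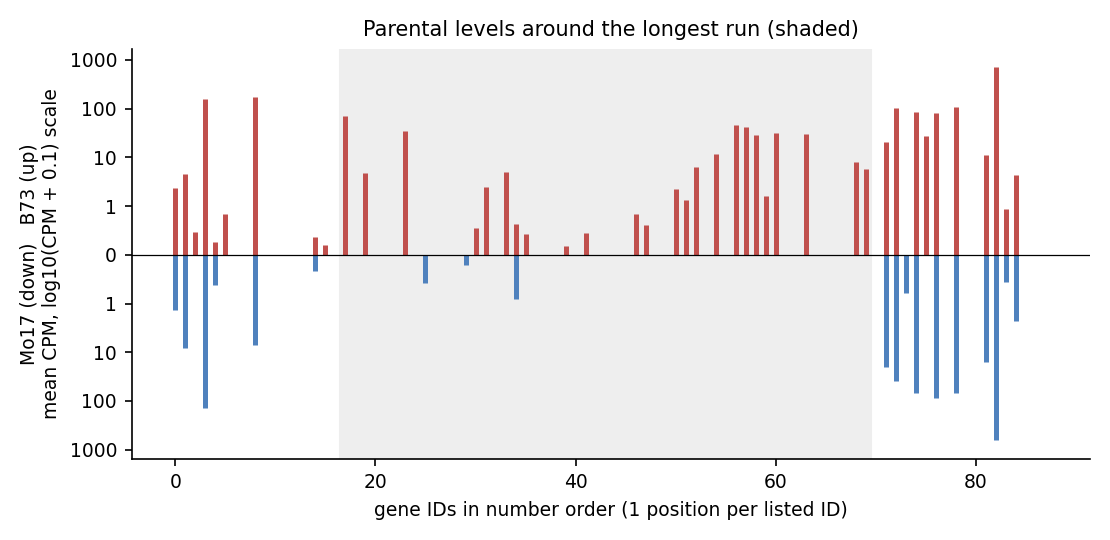
Mean CPM in B73 (red, upward) and in Mo17 (blue, downward) on a log10(CPM + 0.1) scale for each listed gene ID around the longest run, in number order; the run's span is shaded. Within the 53 shaded IDs the 3 blue bars stay under 1 CPM, while the nearest expressed IDs on either side have bars in both directions.

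Summed over the 14 genes, every hybrid library was below the single-dose level. Their summed level was 133 and 153 CPM in mop1F1, 157 and 129 CPM in WTF1, and 341 and 318 CPM in B73. That is 0.805 and 0.929 of the single-dose level in mop1F1 and 0.956 and 0.782 in WTF1, so the hybrids overlapped. The median ratio over the 14 genes, which gives weak and abundant genes the same weight, was lower in each library, at 0.778 and 0.807 in mop1F1 and 0.866 and 0.654 in WTF1. The genes of the run did not share 1 ratio. Zm00001d035367.RefGen_V4 had 24.7 and 31.2 CPM in mop1F1, 25.4 and 31.3 CPM in WTF1, and 32.3 and 38.9 CPM in B73. Its ratios to the single-dose level were 1.39 and 1.75 in mop1F1 and 1.43 and 1.76 in WTF1. Zm00001d035356.RefGen_V4, the most abundant gene of the run, had 24.2 and 36.1 CPM in mop1F1, 42.6 and 26.6 CPM in WTF1, and 77.5 and 61.9 CPM in B73, or 0.695 and 1.03 times the single-dose level in mop1F1 and 1.22 and 0.763 times in WTF1. Zm00001d035405.RefGen_V4 had 0.17 and 0.422 CPM in mop1F1, 0 and 1.11 CPM in WTF1, and 6.23 and 6.41 CPM in B73, at most 0.35 of the single-dose level in any hybrid library.

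Toward the upper end of the run, Zm00001d035428.RefGen_V4 had 6 and 3.72 CPM in mop1F1, 5.2 and 8.28 CPM in WTF1, and 30.8 and 29.6 CPM in B73. Zm00001d035436.RefGen_V4 had 0.255 and 0.614 CPM in mop1F1, 0.938 and 0.763 CPM in WTF1, and 5.42 and 6.06 CPM in B73. Both were among the IDs called lower than the single-dose level in mop1F1 (edgeR, adjusted p = 0.0266 and 0.0179). Neither was called in WTF1, which by itself does not show a difference between the hybrids. Zm00001d035428.RefGen_V4 was at 0.397 and 0.247 of the single-dose level in mop1F1 and 0.344 and 0.548 in WTF1. Zm00001d035436.RefGen_V4 was at 0.0889 and 0.214 in mop1F1 and 0.327 and 0.266 in WTF1. Zm00001d035411.RefGen_V4 had 20.3 and 18.5 CPM in mop1F1, 8.96 and 11.9 CPM in WTF1, and 46.4 and 45.6 CPM in B73. It was called lower than the single-dose level in WTF1 (edgeR, adjusted p = 0.0209). Each of these calls ended when either B73 library was left out. The direct contrast of mop1F1 with WTF1 for Zm00001d035411.RefGen_V4 did not pass (log2 fold change 0.97 ± 0.29 SE, edgeR, adjusted p = 1).

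**Figure D5:**
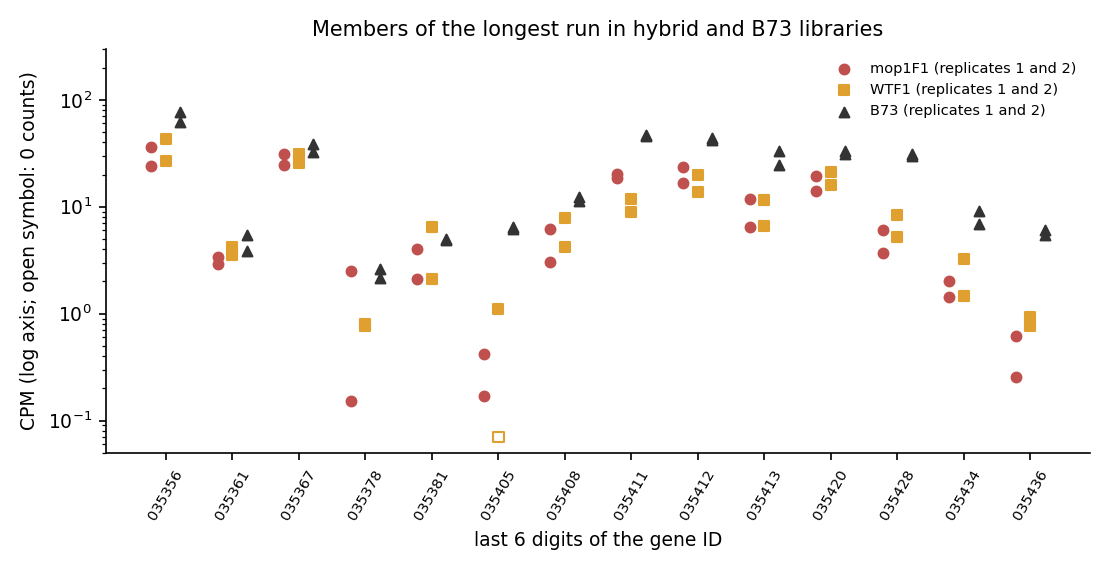
CPM (log axis) of each of the 14 IDs of the longest run in the mop1F1, WTF1 and B73 libraries, with 1 symbol per library and an open symbol for 0 counts. The B73 symbols stand above all hybrid symbols at most IDs, and Zm00001d035405.RefGen_V4 shows the single 0, in WTF1.

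The second run held 4 genes with consecutive numbers, Zm00001d002454.RefGen_V4 to Zm00001d002457.RefGen_V4, and no other listed ID lay between them. Their summed level was 13.9 and 19.4 CPM in mop1F1, 13.3 and 17.1 CPM in WTF1, and 36 and 41.1 CPM in B73. The hybrid libraries thus lay between 0.691 and 1 of the single-dose level and overlapped. The most abundant of the 4, Zm00001d002456.RefGen_V4, had 10 and 11.8 CPM in mop1F1, 8.36 and 11.9 CPM in WTF1, and 21.2 and 23.6 CPM in B73. Zm00001d002455.RefGen_V4 varied more, with 1.02 and 3.26 CPM in mop1F1, 0.341 and 1.53 CPM in WTF1, and 6.6 and 8.04 CPM in B73. The flanking expressed IDs were read in both parents, Zm00001d002452.RefGen_V4 at 4.24 and 4.84 CPM in B73 and 2.59 and 3.3 CPM in Mo17, and Zm00001d002462.RefGen_V4 at 132 and 104 CPM in B73 and 138 and 158 CPM in Mo17.

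The members of each of the 9 runs of 2 lay 1 or 2 numbers apart. The pair with the highest B73 level was Zm00001d012098.RefGen_V4 and Zm00001d012100.RefGen_V4, which sum to 85.5 and 80.1 CPM in mop1F1, 92.8 and 65.4 CPM in WTF1, and 234 and 173 CPM in B73. Nearly all of it came from Zm00001d012100.RefGen_V4, and the ID listed between them had counts in Mo17. The pair Zm00001d043484.RefGen_V4 and Zm00001d043485.RefGen_V4 summed to 53.1 and 76.9 CPM in mop1F1, 99.3 and 51.5 CPM in WTF1, and 152 and 111 CPM in B73, with its highest hybrid level in WTF1 replicate 1. The pair Zm00001d034040.RefGen_V4 and Zm00001d034041.RefGen_V4 was below the single-dose level in all 4 hybrid libraries, with sums of 20.3 and 37.9 CPM in mop1F1, 33.7 and 21.3 CPM in WTF1, and 90.1 and 76.7 CPM in B73.

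The pair Zm00001d012744.RefGen_V4 and Zm00001d012745.RefGen_V4 summed to 23.1 and 41.4 CPM in mop1F1, 36.8 and 23.2 CPM in WTF1, and 72.3 and 56.5 CPM in B73. The ID before this pair, Zm00001d012743.RefGen_V4, had 104 and 103 CPM in B73 and 0 and 0.173 CPM in Mo17, and so was outside the rule. The pair Zm00001d016912.RefGen_V4 and Zm00001d016913.RefGen_V4 differed in the hybrids. The first of these had 0 and 3 CPM in mop1F1, 0 and 0.153 CPM in WTF1, and 13.3 and 12.8 CPM in B73, while the sum of the pair lay between 0.532 and 1.27 of the single-dose level. Summed over each of the 9 pairs, the hybrid libraries ranged from 0.485 to 2.53 of the single-dose level.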

How the data were processed

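The authors deposited whole-number read counts per gene ID, 1 library per file, in the layout of htseq-count. The submitters' processing notes name HISAT2, HTSeq, Trimmomatic, FastQC and DESeq2 and give no versions for them. No source used here gives the strand setting or annotation release, so overlapping or antisense genes and members of gene families may share reads. The 5 summary rows, 13.9% to 29.75% of records, entered neither library sizes nor tests. Groups and replicate numbers follow the sample titles; the file of B73 replicate 2 carries the number 1 in its name, so the B73 numbers are uncertain.

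CPM were computed from these counts by dividing by each library's sum over gene IDs. The test used edgeR 4.0.16 under R 4.3.3 with limma 3.58.1. Low IDs were removed with filterByExpr given the groups, and libraries were scaled by TMM, with all 8 libraries in 1 fit of group means and a quasi-likelihood F test, with p-values adjusted by the Benjamini-Hochberg method at 0.05. For the single-dose level (0.5 times B73), the B73 libraries carried a fixed offset of a factor of 2. The SE is the log2 fold change divided by the square root of F. Alternatives were DESeq2 1.42.0, other scaling and filters, a replicate block, fits of the compared groups alone and leaving out each library. Fits were tested on simulated data: 32% of 4-fold and 90.3% of 16-fold changes between mop1F1 and WTF1 were recovered over 23986 to 24000 IDs. A simulation held 200 altered IDs, and more true changes make the adjusted threshold easier to pass. In the real contrast of the hybrids only 2 IDs passed, at an unadjusted p of at most 3.67e-06 (edgeR). The recovered shares are therefore not the power for the 302 IDs in that contrast.

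The IDs, lists and runs were chosen with earlier results of these data known. Named IDs are the 10 most abundant in B73, the 6 longest runs (ties by B73 level), up to 2 calls per direction and test, IDs at 0 in both libraries of a hybrid with at least 10 CPM in B73, and those at the edge of the rule. The split by replicate number, the last pair described, weak IDs at 0 in WTF1, further IDs of the runs and IDs under other observations were named after their values were seen. Pairing by replicate number is not stated in the labels.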

Additional observations from a re-analysis of the deposited data

How the results depend on the processing

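The number of chosen IDs, 302, was 223 to 410 under other limits and scaling and 323 to 370 without 1 parental library. The median over the single-dose level was 0.858 to 1.02 in mop1F1 and 0.933 to 1.07 in WTF1 with other scaling, levels or choice of B73 library, and 0.782 to 1.07 and 0.727 to 1.14 without 1 library. Calls against the single-dose level ranged from 0 to 31 in mop1F1 and from 0 to 22 in WTF1 without 1 library, and were 103 and 78 without both hybrid libraries rich in ambiguous reads. A fit of WTF1 and B73 alone gave 31 calls. Between the hybrids, 0 calls were made without any 1 library, 2 with DESeq2 and 21 without both libraries rich in ambiguous reads. The fits without both libraries rich in ambiguous reads kept 1 library per hybrid, and the spread of that library was assumed. Calls over all IDs tested rose in those fits as well. Their counts of calls are therefore not a result about the 302 IDs. The cause of these shifts was not tested.

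The 2 runs became 11 when runs of 2 counted, and 2 to 3 without 1 parental library. Deviations of same-numbered libraries correlated at 0.346 between the hybrids, -0.0817 between mop1F1 and B73 and -0.0305 between WTF1 and B73 (19592 IDs), from 2 pairs each, and the samples share only a number. The values with B73 rest on the replicate numbers in the titles, and 1 B73 file name gives another number. With the replicate block, 0 IDs were called between the hybrids, 15 in mop1F1 and 18 in WTF1 against the single-dose level, compared with 0, 18 and 20. Of 55 alternatives for single named calls, 39 kept the call and 16 lost it. Depth limits what a 0 can show to 0.115 to 0.256 CPM.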

Other observations

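Some of the IDs at 0 in Mo17 stood far above the single-dose level in single hybrid libraries. More than 4 times the single-dose level was reached by 8 of the 302 IDs, by 4 of them in mop1F1 replicate 1, 2 in mop1F1 replicate 2, 7 in WTF1 replicate 1 and 0 in WTF1 replicate 2. Such levels were not particular to the chosen IDs. In the same order of libraries, the 95th percentile was 1.89, 2.19, 2.57 and 1.72 over the 302 IDs. It was 4.69, 4.62, 5.42 and 3.97 over the 19290 B73-expressed IDs with counts in Mo17. Zm00001d023995.RefGen_V4 had 3.62 and 3.15 CPM in mop1F1, 16.7 and 0.687 CPM in WTF1, and 2.63 and 2.39 CPM in B73. Zm00001d028557.RefGen_V4 had 16.3 and 40.5 CPM in mop1F1, 54.6 and 7.06 CPM in WTF1, and 13 and 7.23 CPM in B73. For Zm00001d050689.RefGen_V4 the levels were 37.6 and 1.23 CPM in mop1F1, 36.9 and 8.4 CPM in WTF1, and 5.96 and 10 CPM in B73, so that both libraries numbered 1 were above both numbered 2. Zm00001d037632.RefGen_V4 showed the same order at a higher level, with 201 and 7.99 CPM in mop1F1, 226 and 56.9 CPM in WTF1, and 86.2 and 105 CPM in B73.

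Zm00001d021226.RefGen_V4 differed between the libraries of the mutant hybrid, with 21 and 0 CPM in mop1F1, 5.37 and 1.95 CPM in WTF1, and 9.18 and 8.28 CPM in B73. Next to the run of 4 genes, Zm00001d002458.RefGen_V4 had 56 and 152 counts in mop1F1, 21 and 124 counts in WTF1, 0 counts in both B73 libraries, and 20 and 11 counts in Mo17.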
